A study of Mus musculus with 8 samples.

Results

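The nuclear-encoded subunits and assembly factors of the mitochondrial respiratory chain were followed in testis RNA from house mice. Members were taken by name: every probe set whose single gene symbol in the array annotation begins with Nduf, Sdh, Uqcr, Cox and a digit, or Atp5. The tissue isoform genes Cox6b2, Cox6a2, Cox7a1 and Cox8b were left out. This gave 99 of the 12422 probe sets on the array, for 74 genes, of which 86 probe sets report structural subunits and 13 report assembly or associated factors. Another 11 probe sets with such a symbol beside other symbols were not used. The rule uses names only, but it was chosen with earlier results of these data known.

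The labels give total RNA from testis in 4 groups: castaneus, domesticus, musculus and ssp. In the titles these names stand between the species name and the replicate label, where a subspecies name is written. Each group has 2 arrays, which the labels call technical replicates. All groups are labelled as Mus musculus. The sources used here do not give strain, age, the number of animals or what ssp stands for. The p-values below therefore measure only the spread between technical replicate arrays.

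The respiratory chain sits in the inner mitochondrial membrane. Complex I takes electrons from NADH and complex II from succinate, complex III passes them to cytochrome c, and complex IV reduces oxygen. Complexes I, III and IV pump protons outward, and complex V, the ATP synthase, lets them back in to make ATP. In the testis, meiotic and haploid germ cells depend on respiration fed largely by lactate from Sertoli cells, and mature sperm carry their mitochondria in the midpiece.

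The deposited values are intensities, 1 per probe set and array. Array medians lay between 151.2 and 182.55, and 7.39% to 13.1% of probe sets on an array lay at or below 18.7, which was used as a floor. Testing was limited to the 8874 probe sets that were at or above the 40th percentile of the array on 2 or more arrays. Of the 99 members, 82 were tested, for 70 genes. The other 17 were too dim, and Ndufa12, Cox5a, Cox8a and Atp5j2 were represented only by such probe sets. The transition protein Tnp2, a marker of spermatids, had group means between 58952.8 and 81126.9, and 0 of the 8 tested probe sets for spermatocyte and spermatid markers differed among the groups (limma), with 3 further probe sets of that list too dim to test. In whole tissue, fewer cells of a type and less RNA per cell cannot be told apart. Of the 10 tested probe sets for striated muscle markers, 4 differed, against 1.76% of all tested probe sets. Their sums lay between 1773.8 and 2810.2 on the 8 arrays, but the 4 went different ways. Ckmt2 averaged 36.1 in ssp against 543.4 to 1191.6 in the others. Tnnc1 averaged 358.1 in castaneus and 502.8 in ssp, against 18.7 to 19.7. Myh7 was highest in musculus, at 789.6, and Atp2a1 in ssp, at 336.4.

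Of the 82 tested members, 1 differed in intensity among the groups: Ndufc1, of complex I. A call required a limma F test with a Benjamini-Hochberg adjusted p under 0.05 over all tested probe sets and group means spanning at least 1 on the log2 scale. Among all tested probe sets, 1.76% were called by this rule, so the members' count is close to that background. At an unadjusted F test p under 0.05 there were 12 members, or 14.6%, against 15.9% of all tested probe sets.

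The 5′ flanking sequence of Ndufc1 is shown with those of 3 members described further on, whose values ranked high in the F test without passing it and whose windows the sequence table holds: Ndufa8 of complex I, and Atp5e and Atp5j of complex V. They were picked after their values were seen. Ndufaf1 ranked above all 3 in the F test by its dimmer probe set and has a window that is not shown. Ndufb2, Ndufv2 and Cox20 also have windows and ranked above Atp5j. Each window is the RefSeq strand of the gene in GRCm38.p6, from 250 bases before to 50 bases after the annotated start, and 60 of the 74 member genes had such a window. Capitals mark matches, on either strand, to the consensus of nuclear respiratory factor 1 (NRF1) or to the letters CCGGAAG (ETS factors, among them GABP), AAGATGGC (YY1), GGGCGG (SP factors) or TGACGTCA (cyclic AMP response element). NRF1 and GABP are known regulators of respiratory chain genes.
Ndufc1, chr3:51408906-51409205, minus strand: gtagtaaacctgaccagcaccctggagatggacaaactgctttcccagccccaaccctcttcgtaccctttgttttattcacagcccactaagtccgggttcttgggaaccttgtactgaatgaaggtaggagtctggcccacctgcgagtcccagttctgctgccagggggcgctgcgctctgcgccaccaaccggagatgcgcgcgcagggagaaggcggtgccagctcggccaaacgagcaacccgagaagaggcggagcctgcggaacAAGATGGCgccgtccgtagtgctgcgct
Ndufa8, chr2:36049289-36049588, minus strand: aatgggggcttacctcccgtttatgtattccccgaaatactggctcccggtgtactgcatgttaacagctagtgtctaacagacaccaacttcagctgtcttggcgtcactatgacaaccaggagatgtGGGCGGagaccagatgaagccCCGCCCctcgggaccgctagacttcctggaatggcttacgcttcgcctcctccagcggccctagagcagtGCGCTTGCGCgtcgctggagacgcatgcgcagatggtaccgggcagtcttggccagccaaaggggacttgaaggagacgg
Atp5e, chr2:174464052-174464351, minus strand: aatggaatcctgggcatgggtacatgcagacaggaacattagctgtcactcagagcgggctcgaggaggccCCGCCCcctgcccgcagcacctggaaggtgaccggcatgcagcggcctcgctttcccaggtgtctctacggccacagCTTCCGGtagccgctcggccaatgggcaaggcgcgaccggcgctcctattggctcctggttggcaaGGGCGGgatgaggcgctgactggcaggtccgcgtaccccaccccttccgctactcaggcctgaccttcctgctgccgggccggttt
Atp5j, chr16:84834927-84835226, minus strand: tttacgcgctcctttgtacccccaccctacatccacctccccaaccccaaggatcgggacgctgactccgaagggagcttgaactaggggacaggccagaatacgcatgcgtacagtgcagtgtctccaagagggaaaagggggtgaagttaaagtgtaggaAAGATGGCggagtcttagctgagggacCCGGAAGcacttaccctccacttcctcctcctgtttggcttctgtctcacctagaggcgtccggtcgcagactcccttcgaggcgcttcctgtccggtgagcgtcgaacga

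The Ndufc1 window held 1 of these matches, the YY1 letters at bases 273 to 280, just past the annotated start. Atp5j held the YY1 letters at bases 163 to 170 and the ETS letters at bases 190 to 196, in 1 of its 2 windows. Its other window, not shown, held the SP letters at 2 places and no YY1 or ETS letters. The window with the most matches was shown, or the one with the lower start where tied, as here. Atp5e held the ETS letters once and the SP letters at 2 places, and Ndufa8 held the NRF1 consensus once, at bases 221 to 230, and the SP letters at 2 places. Over the 66 windows of the member genes, 33.3% held the ETS letters, against 8.86% of all 32851 windows in the table. The NRF1 consensus was in 19.7% of member windows against 4.6%, the YY1 letters in 13.6% against 2.75%, and the SP letters in 33 of the 66 against 35.7%. The cyclic AMP response element was in 3.03% against 1.79%. No test was made of these shares, and a match of letters is not evidence of binding.

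Ndufc1 encodes a small accessory subunit in the membrane arm of complex I. Its probe set read 1318.2 and 1277.3 in castaneus, 7727.3 and 10205.6 in domesticus, 5049.6 and 10495.6 in musculus, and 982.1 and 1510.3 in ssp. The 4 arrays of domesticus and musculus all lay above the 4 arrays of castaneus and ssp. Within each of these pairs of groups the arrays overlapped. The geometric means were 1298 in castaneus, 8880.4 in domesticus, 7280.0 in musculus, with ssp at 1218, a 7.29-fold range (limma F test, adjusted p = 0.0397). They came with replicate SDs of 0.03, 0.28, 0.75 and 0.44 in that order on the log2 scale.

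None of the pairwise contrasts of Ndufc1 passed the threshold. The log2 difference was -2.77 for castaneus minus domesticus (SE 0.42, limma adjusted p = 0.0622) and -2.49 for castaneus minus musculus (adjusted p = 0.0628). It was 2.87 for domesticus minus ssp (adjusted p = 0.0555) and 2.58 for musculus minus ssp (adjusted p = 0.0564). Castaneus minus ssp was 0.09, and domesticus minus musculus was 0.29. The F test call was lost in each of the 8 fits that left out 1 array, where the range stayed between 2.67 and 3.18 on the log2 scale and the adjusted p lay between 0.0746 and 0.140. Those fits leave a group with 1 array, which is assumed to vary like the others. Fewer probe sets were called over the whole array in those fits too.

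The summed intensity of the 8 tested spermatocyte and spermatid probe sets also separated these groups, in the other direction. It was 197115.3 and 245749.8 in castaneus, 172335.0 and 179232.8 in domesticus, 191874.8 and 156924.7 in musculus, and 206640.1 and 257075.0 in ssp. The sum rests mainly on Tnp2, Prm1, Ldhc and Tnp1. The means of these genes and of Pgk2 split the groups in this way. Those of Sycp1, Acrv1 and the tested Prm2 probe set did not. Sycp1 averaged 812.6 in castaneus, 981.5 in domesticus, 1691.55 in musculus, with ssp at 1205.8. On the same list 1 Prm2 probe set was at the floor in all groups and the Sycp3 probe set in 3 of them. The part of germ cell content in the Ndufc1 result was not tested. The gene has no other probe set among the members to set beside it. How well its probes match the sequence of each group was not examined.

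**Figure D1:**
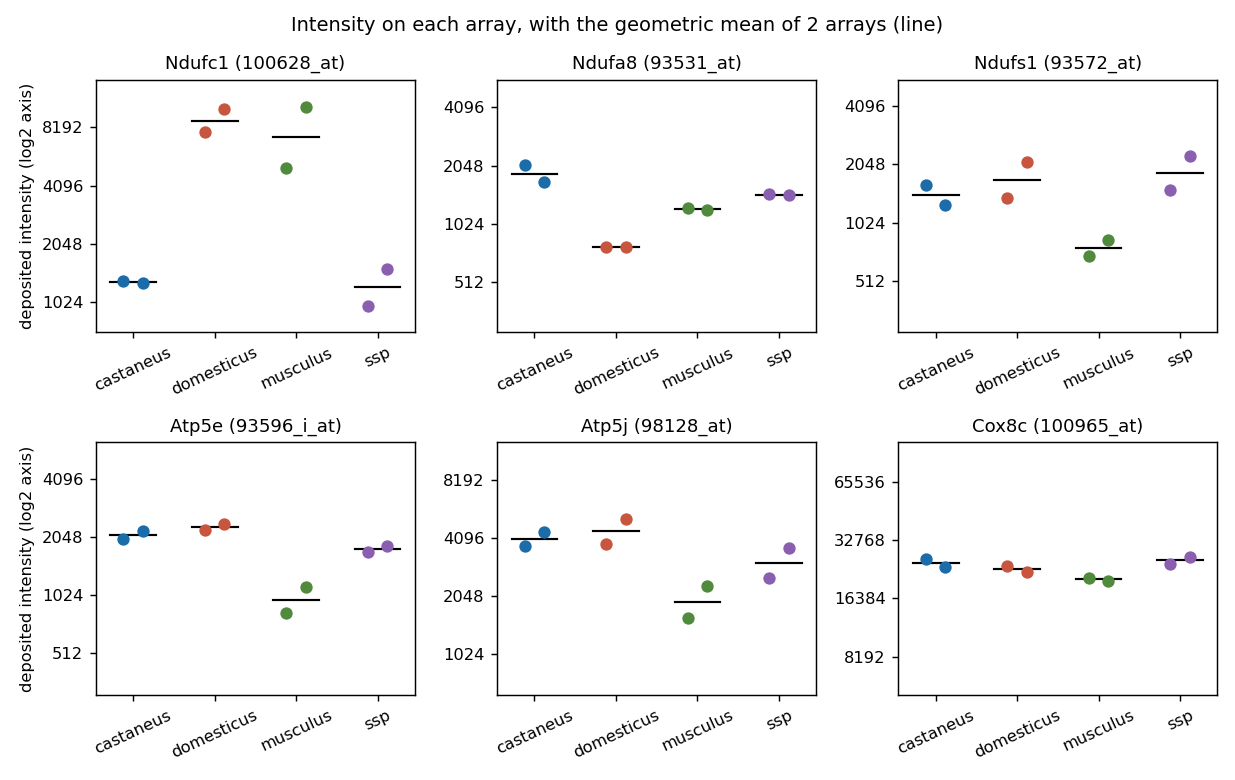
Deposited intensity (log2 axis, 4 groups on the horizontal axis) of 6 respiratory chain probe sets, with 1 point per array and a line at the geometric mean of the 2 arrays. Ndufc1 separates domesticus and musculus (5049.6 to 10495.6) from castaneus and ssp (982.1 to 1510.3), while the bright Cox8c probe set stays between 20238.0 and 26845.4 on all 8 arrays.

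Complex I was represented by 42 probe sets for 31 genes, of which 36 were tested and 1, Ndufc1, was called. The median range of group means over its tested probe sets was 0.61 on the log2 scale, against 0.81 over all tested probe sets. Ndufv1, which binds NADH and the flavin, read 7108.4 and 7108.3 in castaneus, 6937.3 and 6190.9 in domesticus, 7891.3 and 7451.8 in musculus, and 6628.4 and 8132.3 in ssp. Its group means spanned 0.23 on the log2 scale (limma adjusted p = 0.917). Ndufb10, of the membrane arm, had a narrower range still, at 0.16. Ndufs3, of the peripheral arm, ranged over 0.37 log2 units, with arrays between 2990.3 and 4695.9.

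Ndufs1, which carries iron-sulfur clusters in the peripheral arm, read 1608.8 and 1257.0 in castaneus, 1376.4 and 2106.9 in domesticus, 689.4 and 833.5 in musculus, and 1504.8 and 2258.6 in ssp. Both musculus arrays lay below the other 6. The range was 1.28 on the log2 scale and did not pass (limma adjusted p = 0.262).

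Ndufa8, an accessory subunit on the intermembrane side, read 2065.5 and 1677.1 in castaneus, 776.3 and 776.0 in domesticus, 1242.5 and 1213.5 in musculus, and 1469.2 and 1436.0 in ssp. The groups did not overlap, with domesticus lowest and castaneus highest. Its log2 difference was 1.26 for castaneus minus domesticus (SE 0.24, limma adjusted p = 0.0985), or 2.40-fold, and the F test gave an adjusted p of 0.142.

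Ndufa5, of the peripheral arm, read 4370.5 and 5591.0 in castaneus, 4042.5 and 6299.1 in domesticus, 2551.5 and 3215.1 in musculus, and 1814.2 and 2867.5 in ssp. The arrays of castaneus and domesticus lay above those of musculus and ssp, a split unlike that of Ndufc1 (limma F test, adjusted p = 0.294). Ndufaf1, an assembly factor of complex I, read 60.9 and 59.5 in domesticus by its dimmer probe set, against 139.3 to 233.8 on the other 6 arrays (adjusted p = 0.0937). Its brighter probe set was also lowest in domesticus, at a mean of 458.9 against 459.3 to 608.7 in the others, with an adjusted p of 0.648.

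The widest ranges in complex I after Ndufc1 fell on dim probe sets. A probe set of Ndufb2, a membrane arm subunit, was below the floor on both musculus arrays, at 17.8 and 7.5. Castaneus was at least 5.46-fold and domesticus at least 5.83-fold higher than musculus there, and the ssp arrays were apart, at 198.2 and 39.1 (limma F test, adjusted p = 0.244). Of the 2 brighter Ndufb2 probe sets, 1 was highest in musculus, at a mean of 3863.2 against 1884.5 to 2962.2, and the other was lowest there, at 3948.3 against 4027.6 to 4750.5. Ndufs4, whose loss in mice gives a fatal brain disease, read 14.6 and 16.7 in domesticus, both below the floor, with 121.6 and 70.7 in castaneus, 26.6 and 17.5 in musculus, and 22.8 and 159.7 in ssp (adjusted p = 0.4). Ndufa1 by its more variable probe set read 209.5 and 152.1 in castaneus, 121.1 and 26.2 in domesticus, 226.0 and 45.9 in musculus, and 43.0 and 36.3 in ssp, a range of 2.18 log2 units beside replicate SDs of up to 1.63 (adjusted p = 0.536).

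**Figure D2:**
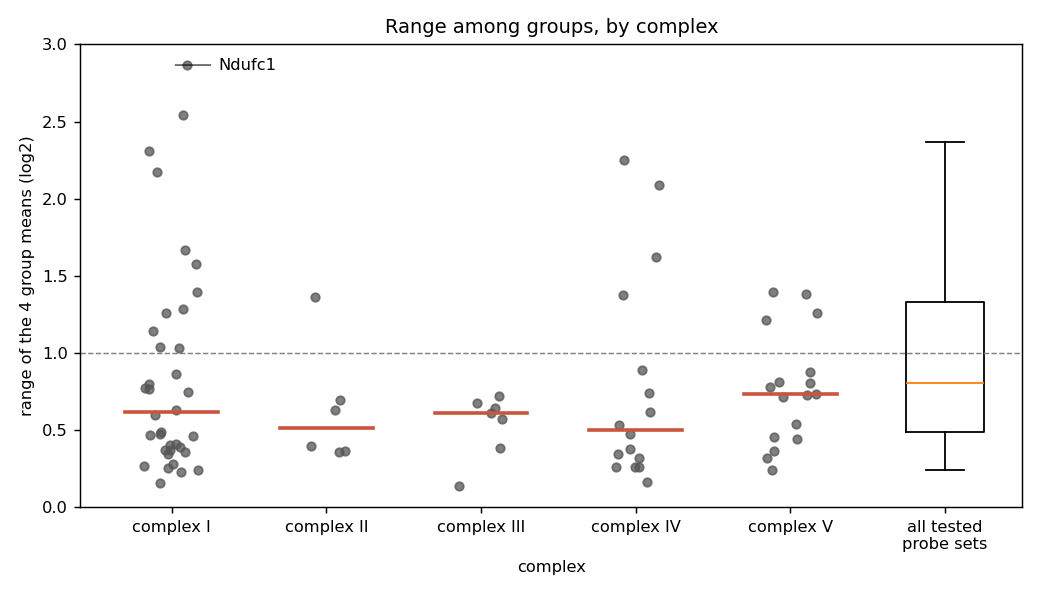
Range of the 4 group means on the log2 scale (vertical axis) for each tested probe set, by complex, with a red line at each median; the box shows all 8874 tested probe sets (quartiles, whiskers at the 5th and 95th percentiles). Most members lie under the dashed line at 1, and Ndufc1 lies highest at 2.87.

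Complex II had 6 probe sets for 6 genes, all tested, and 0 were called by limma, with 1 at an unadjusted F test p under 0.05. That was Sdha, the flavoprotein that oxidises succinate, which read 235.6 and 231.1 in castaneus, 140.1 and 63.6 in domesticus, 223.5 and 179.3 in musculus, and 238.1 and 247.6 in ssp. Both domesticus arrays lay below the other 6, with a replicate SD of 0.81 on the log2 scale, and the adjusted p was 0.286. The iron-sulfur subunit Sdhb had group means of 2805.7 in castaneus, 2533.6 in domesticus, 3342.3 in musculus, with ssp at 3085.0. The membrane anchors Sdhc and Sdhd ranged over 0.37 and 0.63 on the log2 scale. The assembly factor Sdhaf1 was lowest in castaneus, at 618.8 against 883.3 to 1004.1 (adjusted p = 0.433), and Sdhaf2 ranged over 0.36 log2 units.

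Complex III had 7 probe sets for 7 genes, all tested. None was called by limma, none had an unadjusted F test p under 0.05, and none ranged over 1 log2 unit. Uqcrh, the acidic hinge protein at the cytochrome c site, averaged 2345.3 in castaneus, 2572.3 in domesticus, 2434.4 in musculus, with ssp at 2580.5, a range of 0.14 log2. This was the narrowest range of any tested member. Of the core proteins, Uqcrc1 read 7180.4 and 7619.7 in castaneus, 7893.3 and 7769.6 in domesticus, 6590.1 and 5705.4 in musculus, and 5489.0 and 4580.2 in ssp. Both ssp arrays lay below the other 6, and the group means spanned 1.56-fold (limma adjusted p = 0.435). Uqcrc2 differed more between replicates, at 600.4 and 1270.5 in domesticus and 609.3 and 1478.9 in ssp. Uqcr11, Uqcrb, Uqcr10 and Uqcrq, small subunits, ranged over 0.72, 0.68, 0.61 and 0.38 log2 units.

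Complex IV had 22 probe sets for 16 genes, of which 16 were tested and 0 were called by limma, with 2, Cox20 and the dim Cox8c probe set, at an unadjusted F test p under 0.05. Cox8c, the isoform of subunit VIII known from testis, was retained by the naming rule. Its bright probe set read 26296.4 and 23665.1 in castaneus, 24053.7 and 22321.0 in domesticus, 20978.9 and 20238.0 in musculus, and 24664.6 and 26845.4 in ssp. Its group means spanned 0.32 on the log2 scale (adjusted p = 0.798). The dim Cox8c probe set read 32.9 and 130.2 in domesticus, against 123.2 to 311.9 on the other arrays (adjusted p = 0.282). The probe set of Cox8a, the widespread isoform, stayed between 8.5 and 49.5 on all arrays and was not tested. Among the isoforms left out, Cox6b2 had 1 of 3 tested probe sets called, with the lowest mean in domesticus at 653.9. Its brightest probe set was also lowest there, at 20028.9, but spanned 0.54 log2 (limma adjusted p = 0.559). The remaining Cox6b2 probe set was lowest in castaneus, at 935.8 (adjusted p = 0.957).

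The other bright subunits of complex IV had narrow ranges. Cox7a2 lay between 10731.8 and 15425.9 on the 8 arrays, Cox6a1 between 6854.2 and 11460.9, Cox6c between 4221.2 and 8531.3, and Cox5b between 2153.6 and 4092.5. Both castaneus arrays of Cox7a2 lay above the other 6 (adjusted p = 0.798). For Cox5b, both domesticus arrays lay below those of musculus (adjusted p = 0.947). Cox6b1, a subunit on the intermembrane side, was dim, at 148.3 and 50.3 in castaneus, 221.9 and 97.0 in domesticus, 178.7 and 35 in musculus, and 116.3 and 155.8 in ssp, and its groups overlapped (adjusted p = 0.869). The 2 probe sets of Cox4i1, a structural subunit around the catalytic core, were dim and went opposite ways. One was highest in musculus, at a mean of 313.0, and the other lowest there, at 108.2. Neither passed (adjusted p = 0.702 and 0.513).

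Among the assembly factors of complex IV, the copper chaperone Cox17 averaged 2063.4 in castaneus, 2003.6 in domesticus, 1814.1 in musculus, with ssp at 1723.7, and Cox18 ranged over 0.17 log2 units. Cox20, which helps to assemble the mitochondrially encoded subunit II, read 25.3 and 12.7 in castaneus, 75 and 26.4 in domesticus, 148.1 and 72.4 in musculus, and 150.3 and 70.2 in ssp. Both castaneus arrays lay below the 4 arrays of musculus and ssp, and 1 of them was below the floor (adjusted p = 0.263). Replicate SDs ran up to 1.07 on the log2 scale, in domesticus. Cox7a2l, which joins complexes III and IV in supercomplexes, read 1530.6 and 1619.1 in castaneus, 1432.0 and 1512.8 in domesticus, 1085.7 and 1283.0 in musculus, and 984.3 and 903.6 in ssp. All castaneus and domesticus arrays lay above those of musculus and ssp, with an adjusted p of 0.341.

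Complex V had 22 probe sets for 14 genes, of which 17 were tested and 0 were called by limma, with 2 at an unadjusted F test p under 0.05. These were Atp5e, the epsilon subunit of the central stalk, and Atp5j, coupling factor 6 of the peripheral stalk. Atp5e read 2000.6 and 2194.9 in castaneus, 2218.7 and 2385.4 in domesticus, 822.4 and 1126.9 in musculus, and 1704.0 and 1829.1 in ssp. Atp5j read 3711.6 and 4399.1 in castaneus, 3818.7 and 5132.4 in domesticus, 1571.1 and 2311.3 in musculus, and 2535.5 and 3646.8 in ssp. Both genes had their musculus arrays below the other 6.

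The log2 difference of domesticus minus musculus was 1.26 for Atp5e (SE 0.26, limma adjusted p = 0.125), or 2.39-fold. For Atp5j it was 1.22 (SE 0.34, adjusted p = 0.210), or 2.32-fold. Neither passed. Leydig cell markers, summed over 9 tested probe sets, were highest in musculus, at 13488.6 and 14621.0. The other 6 arrays lay at 3397.2 to 5634.3, and 2 of the 9 probe sets were called. The sum rests mainly on 1 Cyp17a1 probe set, at 8656.3 and 9709.0 in musculus. The means of Cyp11a1, Star and Hsd3b1 were also highest in musculus. Hsd3b6 was highest in domesticus, at 321.1, and Insl3 in ssp, at 149.7. The dim Cyp17a1 probe set was lowest in musculus, at 102.2. Red blood cell markers (2 tested probe sets, 0 called) summed to 13969.6 and 17682.3 in musculus, against 1558.1 to 5393.8 on the other arrays. Macrophage markers (7 tested, 0 called) summed to 3869.3 and 3054.7 in musculus, against 1743.6 to 2458.9. The part of these cell types in the low values was not tested.

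Atp5a1, the alpha subunit in the catalytic head of the ATP synthase, averaged 5370.0 in castaneus, 4406.1 in domesticus, 5000.3 in musculus, with ssp at 4176.0, a range of 0.36 log2 (limma adjusted p = 0.771). Atp5c1, the gamma subunit that turns inside the head, was highest in domesticus by both of its probe sets, with ranges of 0.88 and 0.24 log2. Atp5o, of the peripheral stalk, lay between 2238.2 and 4301.6 on the 8 arrays. The beta subunit Atp5b and the c-ring gene Atp5g3 were not analysed here. The c-ring gene Atp5g1 was dim, at 103.5 and 144.1 in castaneus, 61.6 and 53.0 in domesticus, 119.5 and 139.8 in musculus, and 98.9 and 224.1 in ssp (adjusted p = 0.333). Atp5g2, another c-ring gene, read 313.9 and 306.3 in castaneus, 402.7 and 188.1 in domesticus, 599.4 and 261.1 in musculus, and 193.2 and 294.1 in ssp (adjusted p = 0.828). Atp5md, a small protein of the membrane part, had a narrow range of 0.45 log2 units, with arrays between 2717.0 and 5464.1 (adjusted p = 0.86). Atp5l, subunit g of the membrane part, held within 0.32 log2 units by its bright probe set and ranged over 1.39 by its dim one.

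**Figure D3:**
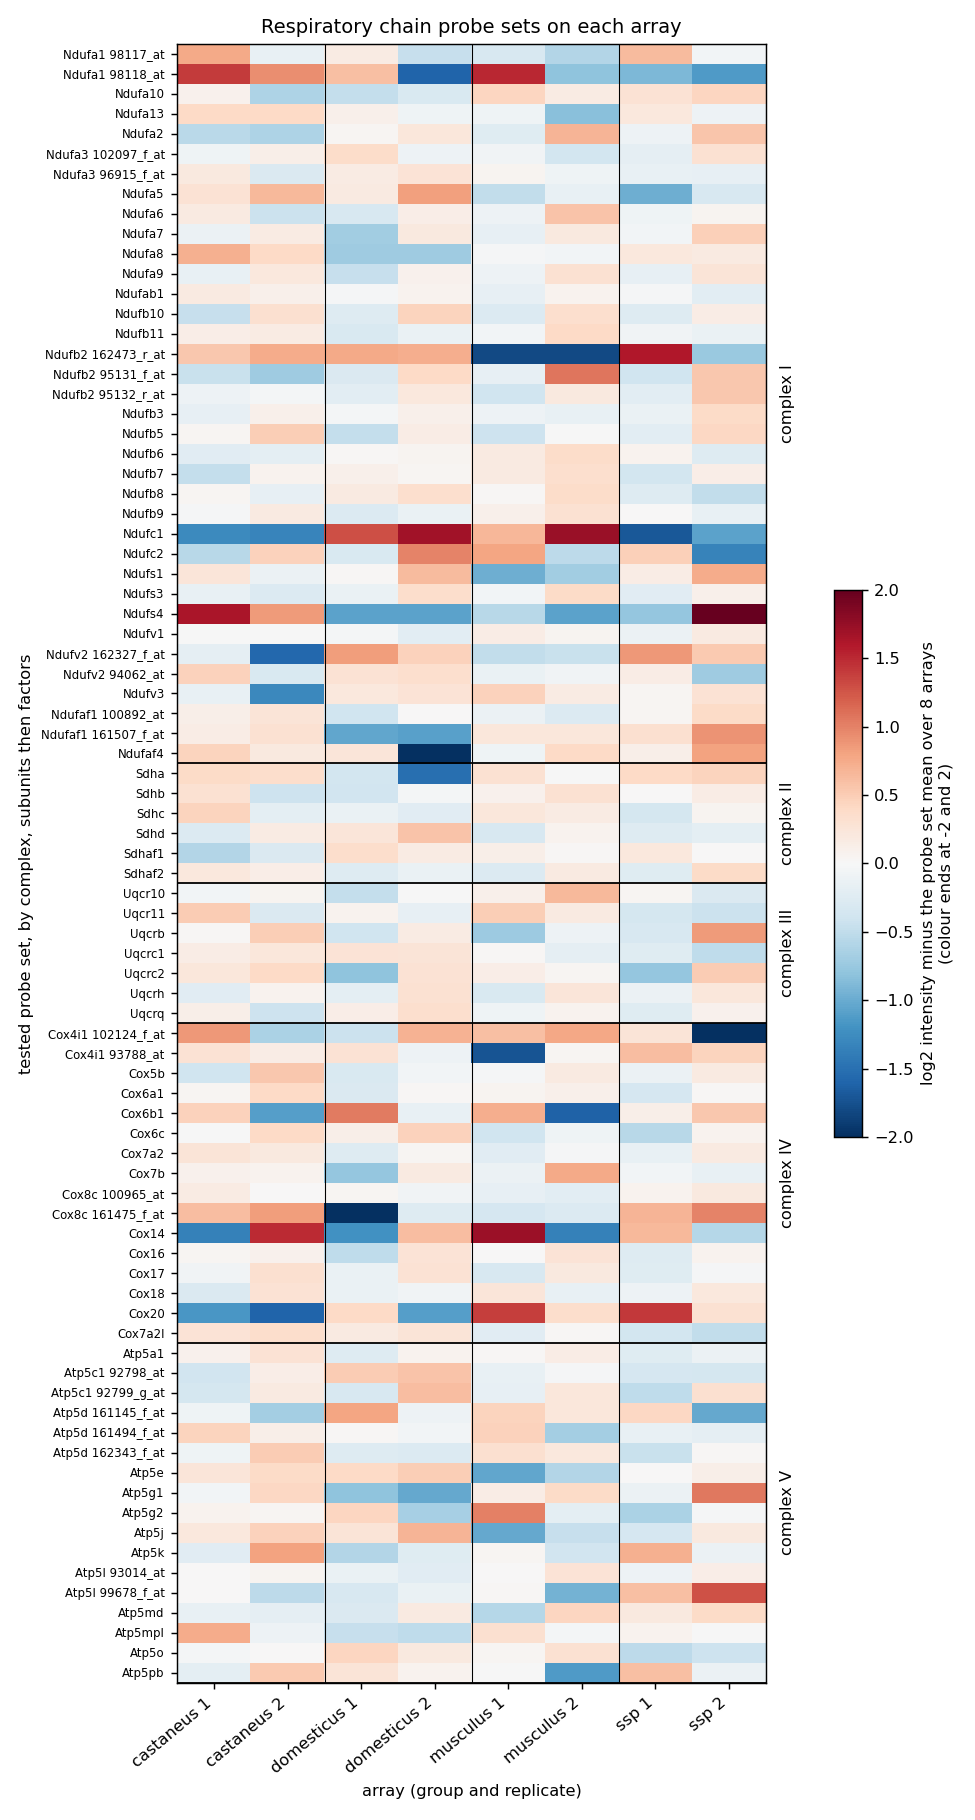
Log2 intensity of each of the 82 tested probe sets (rows, by complex, subunits before factors) on each array (columns), as the difference from its own mean over 8 arrays; red is higher and blue is lower. No complex holds 1 colour throughout in any group. Of the 21 rows ranging over at least 1 log2 unit, 14 are dim (all group means under 500).

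The median log2 difference over the 82 tested members, each group minus the mean of the other 3, was 0.10 in castaneus, -0.05 in domesticus, 0.05 in musculus, with ssp at 0.04. Over all tested probe sets the same medians were 0.01, -0.01, 0.01 and 0.05. The within-group SD of the array medians of the members was 0.115 log2, and these shifts, from the main fit, were no larger than that. This SD includes an offset, since the members ran higher on replicate 2 in every group. Their median difference, replicate 2 minus replicate 1, was 0.03 in castaneus, 0.13 in domesticus, 0.16 in musculus, with ssp at 0.23. Over all tested probe sets it was 0.01, -0.03, -0.07 and 0.02. The shifts were not tested with that offset taken out. With median centring of the arrays the castaneus shift was larger than the SD, at 0.1695, against 0.0868 over all tested probe sets. By array, the median deviation of the members from their own means was 0.04 and 0.13 in castaneus, -0.13 and 0.07 in domesticus, -0.04 and 0.07 in musculus, and -0.11 and 0.11 in ssp. The lowest arrays, domesticus replicate 1 and ssp replicate 1, each had a replicate above 0. Domesticus held the lowest mean for 28 of the 82 members, or 34.1%, against 25.2% of all tested probe sets, and for 7 of the 11 tested factors. By complex, the median difference from the other groups reached 0.22 in castaneus for complex V and -0.24 in domesticus for complex II. It was -0.17 in ssp for complex III. In castaneus, 13 of the 16 tested complex IV probe sets (81.25%) lay above the mean of the other groups, against 51.5% of all tested probe sets. No test was made of these counts or medians.

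**Figure D4:**
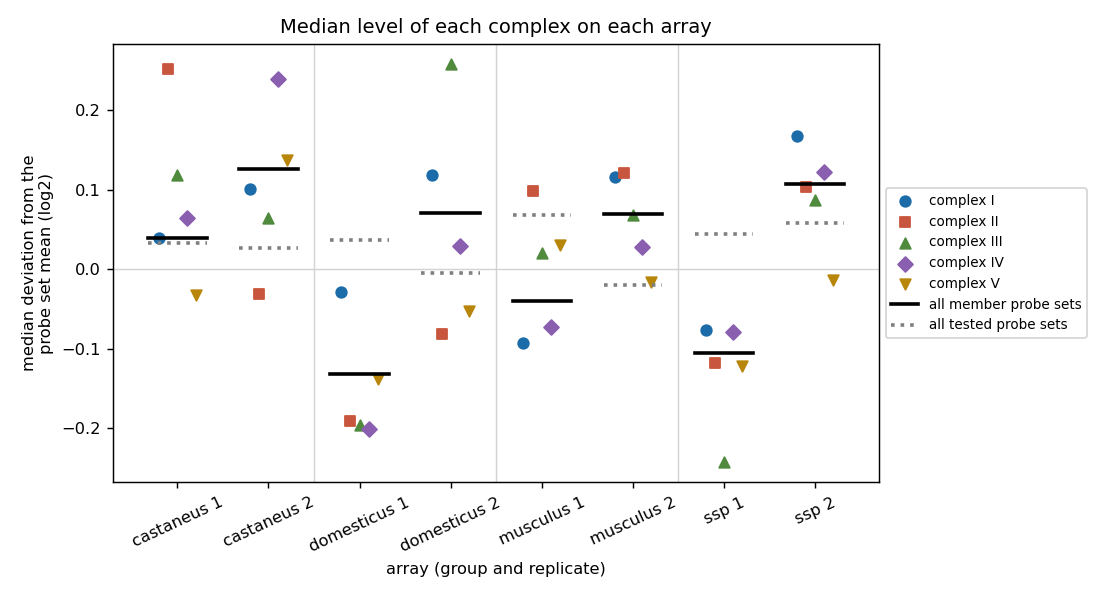
Median deviation of the tested probe sets from their own mean over 8 arrays (log2, vertical axis) on each array (horizontal axis), by complex (symbols), for all members (black line) and for all tested probe sets (dotted grey line). The members' medians run from -0.13 to 0.13, and replicates of 1 group lie as far apart as the groups do. Replicate 2 lies above replicate 1 in every group for the members.

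The members' small ranges stood beside bright signals. The median range over the 82 members was 0.62 log2 units, against 0.81 over all tested probe sets, and 21 members, or 25.6%, ranged over at least 1 log2 unit, against 38.7%. Of these 21 members, 14 had all group means under 500, a limit chosen after the values were seen. Among probe sets with a group mean of 500 or more, the median range was 0.46 for 56 members and 0.59 for all 3820, with 12.5% and 21.6% ranging over 1 log2 unit. Replicates of the members agreed within 2-fold for 91.5% of them in castaneus, 86.6% in domesticus, 85.4% in musculus, with ssp at 87.8%, against 82.8%, 84.3%, 82.8% and 77.5% of all tested probe sets.

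In pairs of groups, limma called 0 of the 82 members in each of the 6 comparisons, which share arrays with one another. The shares of all tested probe sets called were 0.676% for castaneus with domesticus, 0.947% for castaneus with musculus, 0.349% for castaneus with ssp, 0.744% for domesticus with musculus, 0.687% for domesticus with ssp and 0.980% for musculus with ssp. At an unadjusted p under 0.05 there were 10 members for castaneus with domesticus, or 12.2%, against 10.99% of all tested probe sets. There were 9 for castaneus with musculus (10.98% against 13.5%), 5 for castaneus with ssp (6.10% against 10.8%) and 8 for domesticus with musculus (9.76% against 12.2%). There were 13 for domesticus with ssp (15.9% against 12.4%) and 8 for musculus with ssp (9.76% against 13.3%). The median log2 difference of the members was farthest from 0 for castaneus minus domesticus, at 0.11, against 0.02 over all tested probe sets.

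Where a gene had more than 1 tested probe set, its probe sets often disagreed on the order of the groups. Of 10 such genes, 5 had the same highest group on all their probe sets and 2 the same lowest group. Atp5c1 had both in common, highest in domesticus and lowest in ssp, as did Ndufaf1, highest in ssp and lowest in domesticus. Cox8c, Ndufa1 and Ndufa3 shared the highest group only. Ndufv2, another subunit of complex I, was lowest in ssp by its bright probe set, at 3440.4, and highest there by its dim one, at 251.9. Atp5d, the delta subunit, had a different highest group on each of its 3 probe sets. Of the 82 tested members, 26 carry a letter before _at in their identifier, which in the manufacturer's naming marks probe sets designed under relaxed rules, some of them shared by related transcripts. Ndufc1 carries none, and Atp5e does.

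**Figure D5:**
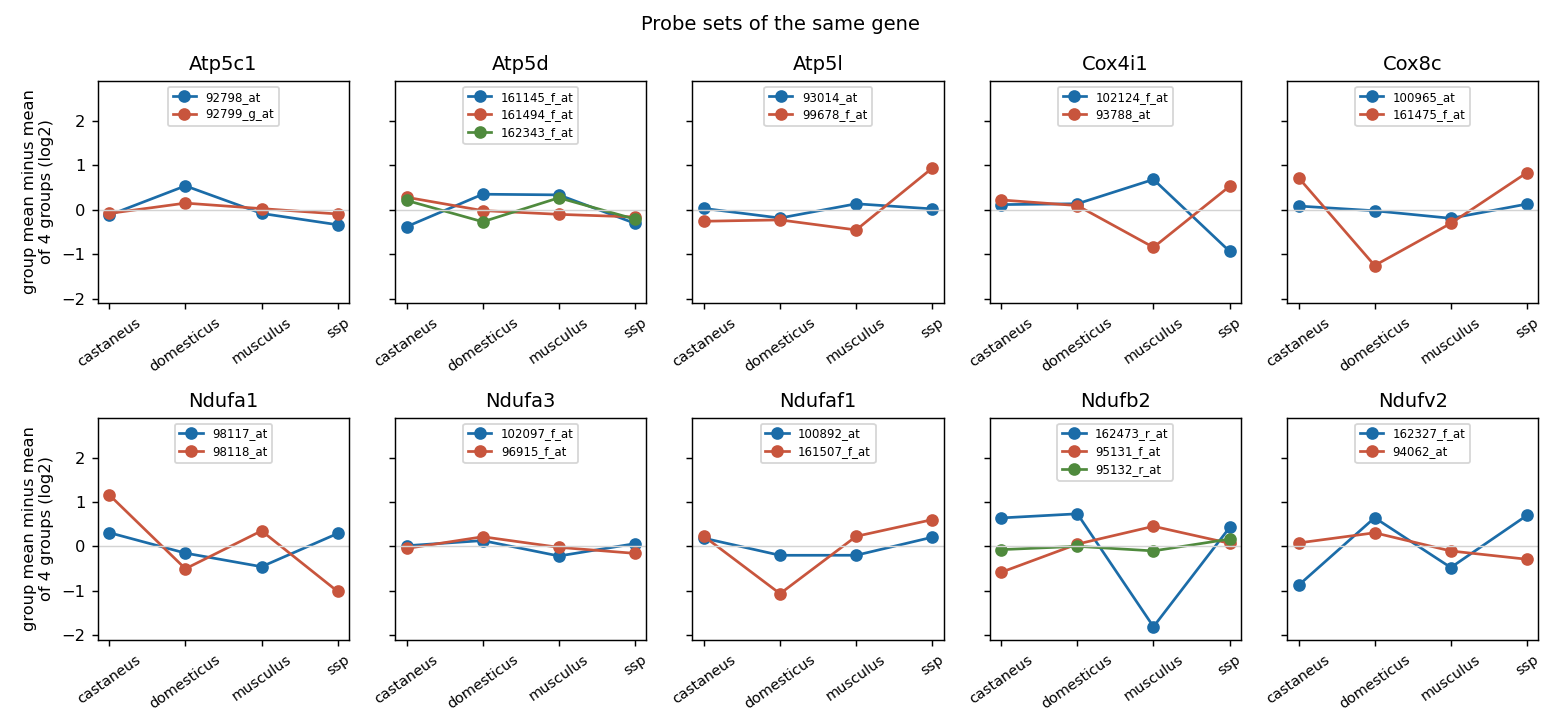
Group means on the log2 scale, centred on the mean of the 4 groups (vertical axis), for the 10 genes with 2 or 3 tested probe sets, with 1 line per probe set across the groups. The lines of Atp5c1 and Ndufaf1 peak and dip in the same groups, while those of Cox4i1 and Ndufb2 cross.

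Genes around the chain were counted in the same way. Of 19 tested probe sets for electron carriers and partners of the chain, 0 were called by limma, and of 13 for citric acid cycle enzymes, 0, beside the 1.76% above. Atpif1, the inhibitor of the ATP synthase, came nearest among the partners, at 22142.6 and 31700.6 in castaneus, 4865.8 and 6385.4 in domesticus, 9007.4 and 9397.7 in musculus, and 12618.4 and 22384.2 in ssp (adjusted p = 0.0903). Domesticus arrays were lowest and musculus arrays next, while castaneus and ssp overlapped. Fh1, fumarase of the citric acid cycle, was highest in domesticus, at 1256.9 and 1371.3 against 395.3 to 820.4 on the other 6 arrays (adjusted p = 0.0686). Cyc1, the cytochrome c1 subunit of complex III that the naming rule does not reach, ranged over 0.20 and 0.25 log2 units by its 2 probe sets.

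Of 10 tested probe sets for regulators of mitochondrial DNA and biogenesis, 0 were called, beside 1.76% of all tested probe sets. Tfam and Ppargc1a were too dim to test. Of 68 tested probe sets for mitochondrial ribosomal proteins, 1 was called, close to the share over all tested probe sets. It was Mrps21, at 1090.5 and 998.3 in castaneus, 530.9 and 808.5 in domesticus, 446.0 and 345.5 in musculus, and 119.3 and 140.5 in ssp (limma adjusted p = 0.0321).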

How the data were processed

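Total RNA from testis was hybridised to Affymetrix arrays, per the labels. The authors deposited linear intensities, 1 per probe set and array. The sources used here do not give the summary method, the scaling step or a genome build. Trimmed means (2% at each end) lay between 495.6 and 496.7 on all 8 arrays, so no further scaling was applied. Intensities under 18.7, the 10th percentile of all values, were raised to it and log2 was taken. Gene symbols came from the platform annotation. limma 3.58.1 in R 4.3.3 was fitted on all 8874 tested probe sets with 1 mean per group (4 residual and 2.34 prior degrees of freedom), and tested on simulated data. Pairs were contrasts of that fit. Group values are geometric means of 2 arrays. The small number of arrays limits precision.

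The members, gene lists and thresholds were chosen with earlier results of these data known. Named genes are those called, the 4 widest and 2 narrowest ranges per complex, genes with several tested probe sets, the catalytic core and paired isoforms, and members nearest the threshold. Promoter windows come from RefSeq (GRCm38.p6). Alternatives in scaling, floor, filter, variance model, replicate block and left-out arrays are given in the closing section.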

Additional observations from a re-analysis of the deposited data

How the results depend on the processing

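Among the 4 groups, the members called numbered 1 with median centring, quantile normalization, a floor at the 5th or 20th percentile, and a filter at the 60th percentile, and this was Ndufc1 each time. There were 0 with no filter, where Ndufc1 had an adjusted p of 0.0844, and 3 with a trended and robust variance model, which added Ndufa8 and Atp5e. Over all tested probe sets these settings called 31 of 12422 and 383 of 8874, and the 60th percentile filter 309 of 5882, with 65 members tested. Median centring called 152 of 8874 and quantile normalization 157. The floors at the 5th and 20th percentiles called 145 and 215 of 8874. With 1 array left out Ndufc1 was not called, and fewer probe sets were called over the whole array too. Without either ssp replicate a dim probe set of Ndufb2 was called. The replicate number as a block gave 0 members (Ndufc1 limma F test, adjusted p = 0.0568) and changed no other call among them. It called 42 of all 8874 tested probe sets. The titles do not say whether the replicate numbers pair the arrays across groups. Replicate 1 deviations correlated between groups at 0.0263 to 0.171 across all tested probe sets, all above 0. Among the members these correlations ran from -0.0742 to 0.3987. The main fit holds no replicate term.

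Between pairs, where the count was 0, the members called numbered as follows. Castaneus with domesticus had 1 with the 20th percentile floor, 2 with the 60th percentile filter and 2 with the trended model. Castaneus with musculus had 1 with that filter, 2 with the trended model and 0 to 1 with an array left out. Domesticus with musculus had 1, 2 and 0 to 1 in the same settings. Domesticus with ssp, and musculus with ssp, had 1 each with quantile normalization, the 20th percentile floor and the 60th percentile filter, and 1 and 2 with the trended model. Castaneus with ssp had 0 in all settings run. In the pairs with a member called, all tested probe sets called numbered 62 to 100 of 8874 with quantile normalization, 95 to 129 of 8874 with the 20th percentile floor, 128 to 185 of 5882 with the filter, 153 to 223 of 8874 with the trended model and 49 to 57 of 8874 with an array left out.

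The median difference in ssp was -0.0788 with the 60th percentile filter, and with 1 array left out lay between -0.0956 (without ssp replicate 2) and 0.0828. That in domesticus lay between -0.1372 and 0.0786 (without domesticus replicate 1). That in musculus, 0.05 with all arrays, lay between -0.0551 (without domesticus replicate 1) and 0.128 (without castaneus replicate 2), and was -0.0181 without musculus replicate 2. That in castaneus lay between 0.0676 and 0.1477 with 1 array left out. With median centring it was 0.1695 in castaneus and -0.076 in ssp, against 0.0868 and -0.0605 over all tested probe sets. With quantile normalization it was 0.0955 in castaneus and 0.1041 in musculus. The cause of these changes was not tested.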
